A study of Mus musculus with 64 samples.

Results

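The hippocampus of Angelman syndrome model (AS) mice was compared with that of wild-type (WT) mice under vehicle alone, without added corticosterone. The comparison used 10 RNA-seq libraries, 4 from AS vehicle mice (libraries H13 to H16) and 6 from WT vehicle mice (libraries H1 to H6), out of 24 acute hippocampal libraries and 64 libraries in the whole series. Both groups were adult male mice of 10 to 18 weeks, offspring of C57BL/6J fathers and 129sv mothers that carried the Ube3a tm1Alb allele on the paternal chromosome. AS mice (Ube3a m-/p+) inherited the allele from the mother, whereas WT mice did not. The allele lacks an exon, which shifts the reading frame and removes the UBE3A protein from neurons. Mice of both groups received a subcutaneous injection of ethanol in PBS and the left hippocampus was collected 3 h later, 1 mouse per library. All 10 libraries lay in one range of reads discarded for low alignment quality, 1877 to 2154 per library. The remaining 2 AS vehicle libraries, H17 and H18, had 2735 and 2850 such reads, and the test across genes and the medians of the gene lists were therefore also computed with them added.

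UBE3A is an E3 ubiquitin ligase that marks proteins for degradation by the proteasome. In neurons the gene is expressed from the maternal chromosome, because the long antisense transcript that contains Snhg14 silences the paternal copy, while many other cell types use both copies. Loss of the maternal copy in people causes Angelman syndrome, with intellectual disability, seizures and a disturbed gait. UBE3A also acts as a coregulator of nuclear receptors such as the glucocorticoid receptor (GR, encoded by Nr3c1), which is why the vehicle mice form the baseline for the corticosterone (CORT) arms of the study.

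The 10 libraries held 19049461 to 21052967 reads on genes, and 12.96% to 14.67% of reads fell off genes. A count of 3, taken as the detection limit, corresponded to 0.142 to 0.157 CPM, the read count scaled to library size. Reads on genes averaged 20207400 in AS and 20806200 in WT libraries (exact permutation test, two-sided, p = 0.00952, adjusted p over 6 library measures = 0.0571). Reads of low alignment quality, by which the AS libraries were chosen, were 1877 to 2078 in AS and 2011 to 2154 in WT libraries. WT library H6 stood apart. Its summed level of 13 choroid plexus markers was 1595 CPM against 113 to 218 CPM in the other 9 libraries, and its summed level of 9 dentate granule cell markers was 352 CPM, the lowest of all. Ttr, the transthyretin gene of the choroid plexus, reached 973 CPM in H6 and 51.4 CPM at most in the other libraries.

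Ube3a itself (GRCm38, chr7:59228750-59311536, plus strand) was examined first. Its level was 63.2 to 84.7 CPM in the 6 WT libraries, with a median of 74.8 CPM. The 4 AS libraries read 78.5, 79.9, 64.1 and 71.6 CPM, all within the WT range. The log2 fold change (AS minus WT) was -0.02 ± 0.092 (SE), with an edgeR quasi-likelihood adjusted p of 0.936. The deposited counts add up all exons of a gene and the count over the missing exon was not analysed here, so the gene-level value does not check the genotype labels. Nr3c1, the GR gene, stood at 86.8 ± 6.79 CPM (SD, n = 4) in AS and 86.0 ± 5.84 CPM (SD, n = 6) in WT mice (log2 fold change 0.01, adjusted p = 0.951). In the liver of the continuous cohort, where vehicle or CORT was given by pellet, Ube3a was lower in AS mice, by 0.55 on the log2 scale under vehicle and by 0.48 under CORT (adjusted p = 0.0191 and 0.0133).

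The number of genes that separated the genotypes under vehicle depended on the test. Of 14298 genes tested, 21 passed an adjusted p of 0.05 by the quasi-likelihood test of edgeR (0.147%), with 9 higher (0.0629%) and 12 lower (0.0839%) in AS mice. On the same genes and libraries, 383 passed by DESeq2, the tool of the study, and 298 by limma-voom with quality weights. From here on, passing refers to the edgeR test unless another tool is named. Osteoglycin (Ogn) was 4.03-fold lower, Doc2a was 1.87-fold higher and Lamp5 was 1.54-fold lower. The changes of the other genes were mostly small, with a median absolute log2 fold change of 0.43 over the 21 genes and 13 genes under 0.5. In all 21 genes the 4 AS libraries lay outside the range of the 6 WT libraries, which was the case for 540 of all genes tested (3.78%). In all, 2073 genes had an unadjusted p under 0.05 (14.5%). The cutoff lay close to many genes, since 14 of the 21 had an adjusted p over 0.04 and the next gene had 0.0525. The number of genes depended on single libraries, and was 149 without H6, 100 without H1, 16 without H13, 4 to 12 without any one of H2, H3, H4, H5 and H15, and 2 without H14 or without H16. The 18 protein-coding genes and 3 predicted genes lay on 14 chromosomes.

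**Figure D1:**
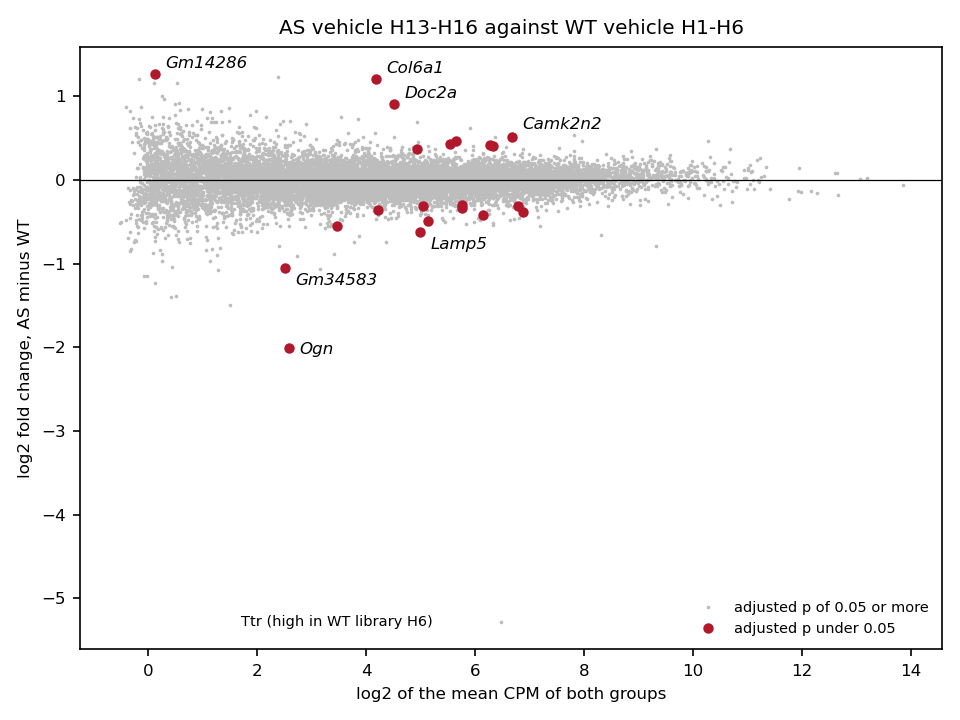
Log2 fold change (AS minus WT) of the 14298 genes tested against the log2 of the mean CPM of both groups, with the 21 genes at an adjusted p under 0.05 in red. Ogn at -2.01 lies far below the other red points, and Ttr at -5.28 is low because 1 WT library, H6, read 973 CPM.

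Ogn, which was lower in AS mice, encodes a small leucine-rich proteoglycan that binds collagen fibrils and is made by meningeal fibroblasts and connective tissue. It is located at chr13:49608046-49624501 (GRCm38, plus strand). WT libraries H1 to H6 read 9.03, 11.5, 11.5, 9.98, 9.52 and 5.92 CPM. AS libraries H13 to H16 read 2.53, 2.29, 2.35 and 2.32 CPM. The AS values lay close together, and even the lowest WT library, H6, was above the highest AS library. The log2 fold change was -2.01 ± 0.18 (SE; edgeR adjusted p = 2.91e-04). Libraries H17 and H18, at 2.57 and 2.40 CPM, lay with the other AS mice. Of 9 small leucine-rich proteoglycan genes tested, Ogn passed, and 5 had a log2 fold change above 0. Ecm2, which lies beside Ogn on chromosome 13, had -0.32 (adjusted p = 0.265) and Aspn, also in that cluster, had 0.17 (adjusted p = 0.802). Ogn overlaps Cenpp on the other strand, but Cenpp was too low to be tested, at 0.573 CPM in AS and 0.779 CPM in WT mice.

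Ogn is also on a list of 14 meningeal fibroblast markers. The summed level of that list was 51.3 to 77.9 CPM in WT and 51.7 to 62.6 CPM in AS libraries, so the groups overlapped. Of its 13 genes tested, 8 were above 0, including Col3a1 with 0.52 (adjusted p = 0.536), and only Ogn passed. In tissue RNA, fewer cells of a type and less RNA per cell cannot be told apart.

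The bases just before the start of Ogn are given here because it had the largest change among the 21 genes that passed, together with those of Lamp5, the other lower gene that also passed with H17 and H18 added. Both runs are the 250 bases upstream of the RefSeq start, from GRCm38.p6, 5′ to 3′ on the gene's strand, at chr13:49607765-49608014 (Ogn) and chr2:136052089-136052338 (Lamp5, the first of 2 starts listed). Capitals mark matches to TATAAA or CCAAT on either strand.
Ogn: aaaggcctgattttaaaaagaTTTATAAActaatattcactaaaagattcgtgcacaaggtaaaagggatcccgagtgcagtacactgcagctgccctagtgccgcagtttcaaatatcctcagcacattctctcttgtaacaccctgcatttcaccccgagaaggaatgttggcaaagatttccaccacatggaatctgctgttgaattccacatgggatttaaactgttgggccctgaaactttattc
Lamp5: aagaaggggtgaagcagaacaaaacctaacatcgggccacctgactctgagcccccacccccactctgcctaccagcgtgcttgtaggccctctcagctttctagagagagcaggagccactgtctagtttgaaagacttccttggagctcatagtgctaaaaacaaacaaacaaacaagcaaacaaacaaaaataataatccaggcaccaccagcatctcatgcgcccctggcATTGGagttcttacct
The Ogn window held TATAAA in both orientations, overlapping each other, and the Lamp5 window held 1 CCAAT on the reverse strand. TATAAA was found in 12.4% and CCAAT in 33.8% of 32851 windows of this length. The palindromic E-box CACGTG and the full palindromic glucocorticoid response element were in neither window, and were found in 6.02% and 0.00913% of all windows. Both windows had fewer CG pairs, 4 and 3, than the median of 6. These matches describe the letters only.

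Col6a1, which encodes a chain of the microfibrillar collagen VI of basement membranes and vessel walls, was higher in AS mice. WT libraries read 6.73 to 15.3 CPM with a median of 10.6 CPM, and the AS libraries read 18.9, 35.2, 26.0 and 20.7 CPM. All AS values were above all WT values, but they spread widely. The log2 fold change was 1.21 ± 0.22 (SE; edgeR adjusted p = 0.0467). Its partner chain Col6a2, its neighbour on chromosome 10, had 0.76 (adjusted p = 0.144), and its groups overlapped. The other chains had values on both sides of 0, with -0.036 for Col6a3, -1.07 for Col6a4 and 0.14 for Col6a5 (adjusted p = 0.959, 0.221 and 0.862). Over the 32 collagen genes tested, a group chosen after the values were seen, 25 were above 0 with a median of 0.14, and Col6a1 was the one that passed. That median was 0.076 with offsets for GC content and transcript length, and -0.0074 in vehicle mice of the continuous cohort, which received pellets.

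Doc2a, Cpne5 and Pitpnm3 were higher in AS libraries H13 to H16, while their paralogs did not pass. Doc2a (chr7:126847416-126852705, plus strand) encodes a double C2 domain protein, a calcium sensor for spontaneous and asynchronous transmitter release at glutamatergic synapses. WT libraries read 18.2, 15.7, 16.2, 12.9, 17.1 and 15.3 CPM, while AS libraries read 26.8, 30.02, 33.1 and 29.3 CPM. The groups were well separated. The log2 fold change was 0.90 ± 0.088 (SE; edgeR adjusted p = 4.46e-04). Libraries H17 and H18 read 23.6 and 23.3 CPM, between the WT mice and the other AS mice. Doc2a lies on chromosome 7 as Ube3a does, but far from it, and none of the 23 genes tested within 200 kb of Doc2a passed, with log2 fold changes of -0.25 to 0.26, while 7 of the 23 had an unadjusted p under 0.05, against 14.5% of all genes. Ino80e, which overlaps Doc2a on the other strand, had -0.14 (adjusted p = 0.281). The paralog Doc2b had -0.21 (adjusted p = 0.569).

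Cpne5, which encodes a copine, another calcium-binding C2 domain protein, read 36.4 to 43.1 CPM in WT and 47.1, 57.6, 55.4 and 52.8 CPM in AS libraries. The log2 fold change was 0.43 ± 0.064 (SE; edgeR adjusted p = 0.0232). Libraries H17 and H18 read 42.3 and 43.7 CPM, the first within the WT range and the second just above it. Pitpnm3, a member of a family of membrane-associated phosphatidylinositol transfer proteins, read 66.0 to 77.1 CPM in WT and 91.4, 95.4, 90.3 and 90.9 CPM in AS libraries, a log2 fold change of 0.40 ± 0.055 (SE; edgeR adjusted p = 0.0146). Here H17 and H18 departed from the other AS mice, with 67.6 and 67.7 CPM, within the WT range. Among 18 genes of dense-core vesicles and neuropeptide processing, none passed in the 10-library edgeR test. Baiap3, which promotes dense-core vesicle release, came closest with a log2 fold change of 0.70 (adjusted p = 0.0813), all 4 AS libraries being above the WT range, as were H17 and H18, at 9.26 and 9.65 CPM. Baiap3 passed in the fit of all 24 acute mice (edgeR adjusted p = 0.0328), beside 0.0618% of all genes as higher, and also without H6 (0.344% of all genes as higher), with DESeq2, with limma-voom and without the filter on low counts. Chga, a granin of the vesicle core, had -0.20 (adjusted p = 0.291).

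**Figure D2:**
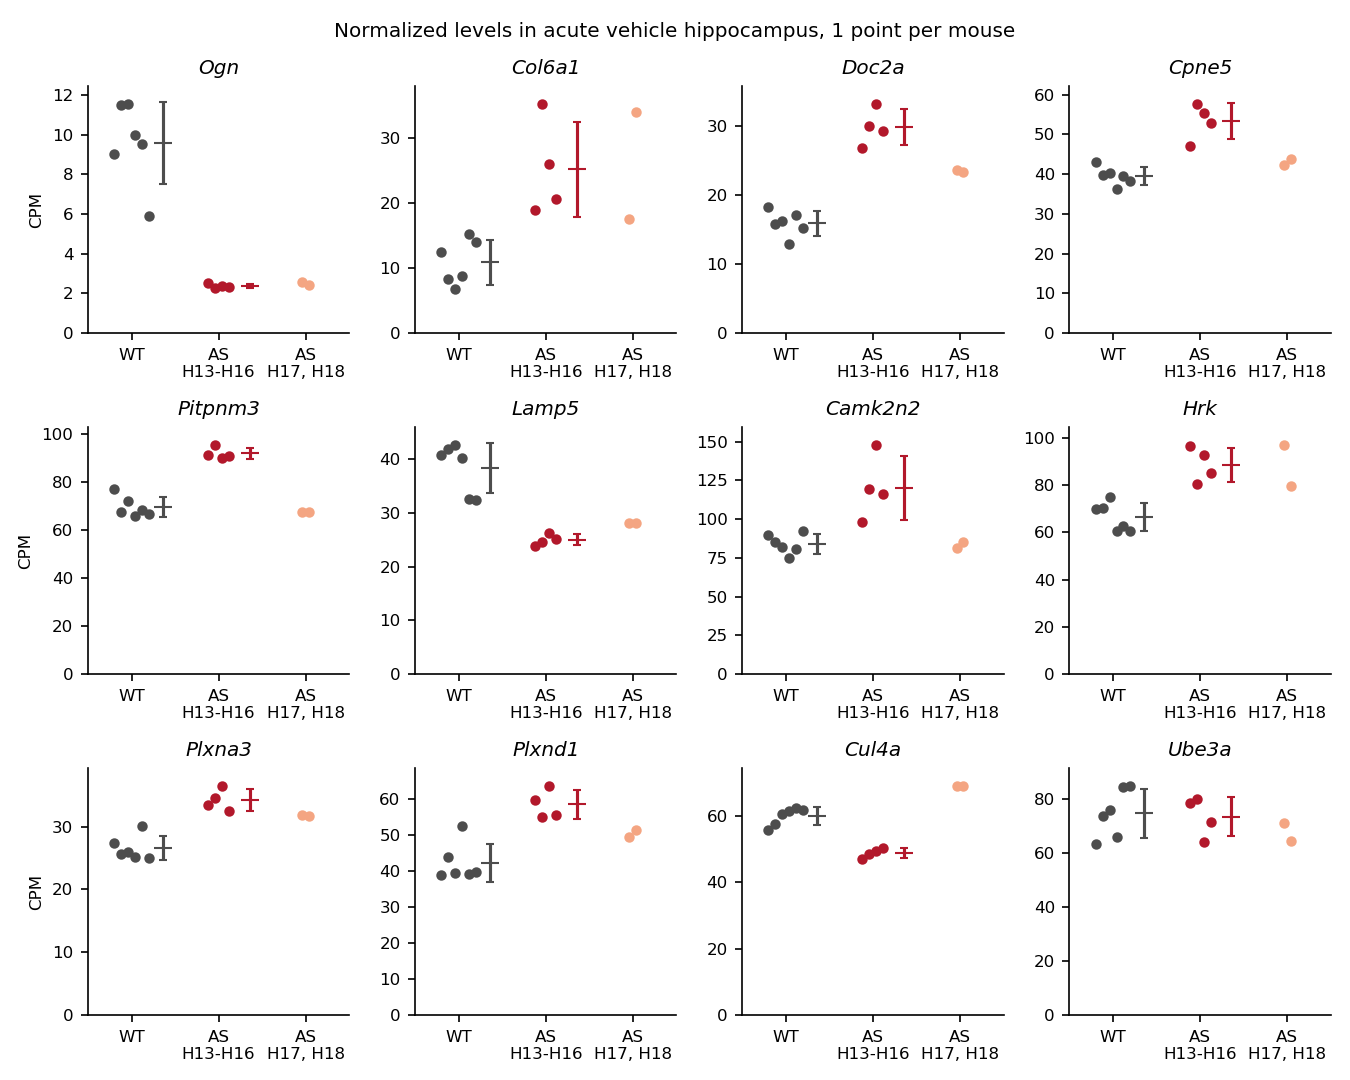
Normalized levels (CPM, axes from 0) of 12 genes in each acute vehicle library, with WT H1 to H6 in grey, AS H13 to H16 in red and AS H17 and H18 in orange, and the mean ± SD of the first 2 groups as bars. Ogn, Col6a1, Doc2a, Lamp5, Hrk and Plxna3 have H17 and H18 on the side of the other AS mice and outside the WT range, Cul4a has them above every WT mouse, and Ube3a overlaps throughout.

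Lamp5, which encodes a lysosome-associated membrane protein found in subsets of cortical and GABAergic neurons, was lower in AS mice. WT libraries H1 to H6 read 40.9, 41.9, 42.6, 40.2, 32.5 and 32.5 CPM and AS libraries H13 to H16 read 23.9, 24.7, 26.3 and 25.1 CPM. The groups did not overlap, and H17 and H18, both at 28.1 CPM, also lay below every WT mouse. The log2 fold change was -0.62 ± 0.086 (SE; edgeR adjusted p = 0.0146). Lamp5 was the one gene to pass on a list of 9 neocortex and subiculum markers, whose summed level was 208 to 253 CPM in WT and 185 to 250 CPM in AS libraries. None of 11 GABAergic interneuron genes passed, and the largest shifts there were those of Reln (-0.26, adjusted p = 0.21) and Vip (-0.31, adjusted p = 0.282).

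Plxnd1 and Plxna3, which encode plexins, the receptors for semaphorins, were higher in AS libraries H13 to H16. Plxnd1 read 38.7 to 52.5 CPM in WT and 59.7, 55.1, 63.4 and 55.5 CPM in AS libraries (log2 fold change 0.47, edgeR adjusted p = 0.0467). Plxna3, on the X chromosome, read 25.1 to 30.2 CPM in WT and 33.5, 34.6, 36.4 and 32.5 CPM in AS libraries (0.36, edgeR adjusted p = 0.0467). H17 and H18 read 49.5 and 51.3 CPM for Plxnd1, both within the WT range, and 31.9 and 31.6 CPM for Plxna3, both above it. The plexins and semaphorins are groups chosen after the values were seen. Of all 9 plexin genes tested, Plxnd1 and Plxna3 passed, beside 0.0629% of all genes as higher, and 6 were above 0. The plexin median was 0.16, or 0.067 with H17 and H18. The 20 semaphorin genes tested had a median log2 fold change of 0.088, which was 0.033 with H17 and H18 and 0.032 with GC content and length offsets, and none passed.

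Camk2n2 encodes an inhibitor of the kinase CaMKII. It read 74.7 to 92.3 CPM in WT and 97.9, 119, 148 and 116 CPM in AS libraries, a log2 fold change of 0.51 ± 0.092 (SE; edgeR adjusted p = 0.0467). With 81.5 and 85.1 CPM, H17 and H18 were within the WT range. The other CaMKII genes tested had log2 fold changes of -0.11 to 0.12 and none passed. Hrk, a BH3-only activator of apoptosis expressed in neurons, read 60.5 to 74.8 CPM in WT and 96.3, 80.6, 92.7 and 85.0 CPM in AS libraries, a log2 fold change of 0.42 ± 0.074 (SE; edgeR adjusted p = 0.0467). H17 and H18, at 96.8 and 79.5 CPM, were above every WT mouse for this gene.

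Psmc3, Cul4a, Ubl5 and Ubtf were lower in AS libraries H13 to H16 by small amounts. Psmc3, an ATPase subunit of the proteasome base, read 113 to 131 CPM in WT and 96.6, 96.3, 104 and 97.2 CPM in AS libraries (log2 fold change -0.31, edgeR adjusted p = 0.0467). Cul4a, the scaffold of cullin-RING ubiquitin ligases, had -0.30, and Ubl5, a ubiquitin-like protein involved in splicing, had -0.33 (edgeR adjusted p = 0.0467 and 0.0270). The other cullin genes tested had log2 fold changes of -0.12 (Cul4b) to 0.24 (Cul7, adjusted p = 0.101), and none passed. Ubtf, a transcription factor of ribosomal RNA genes, read 124 to 145 CPM in WT and 99.1, 99.8, 112 and 101 CPM in AS libraries (-0.38, edgeR adjusted p = 0.0421). H17 and H18 differed from the other AS mice in these genes. They read 117 and 135 CPM for Psmc3, the first within the WT range and the second above it. They read 68.9 and 68.95 CPM for Cul4a, above every WT mouse, and they were within the WT range for Ubtf. For Ubl5 they read 54.6 and 62.1 CPM, the first below the WT range and the second within it.

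The other lower genes have separate roles. Jdp2, a repressor of AP-1 transcription factors, read 35.2 to 47.3 CPM in WT and 28.2, 28.0, 30.4 and 29.9 CPM in AS libraries (log2 fold change -0.49, edgeR adjusted p = 0.0467). Eci2, an enzyme of the oxidation of unsaturated fatty acids, had -0.36, and Selenok, a selenoprotein of the endoplasmic reticulum, had -0.31 (both edgeR adjusted p = 0.0467). H17 and H18 read 36.9 and 38.4 CPM for Selenok, both within the WT range, and 19.1 and 18.7 CPM for Eci2, both below it. For Jdp2 they read 35.4 and 31.7 CPM, the first within the WT range and the second below it. Among the predicted genes, Gm34583 (annotated as a transcribed processed pseudogene) and Gm10076 (annotated as a lincRNA) were lower, by 1.05 and 0.55 on the log2 scale. Gm14286 (annotated as an antisense gene) had a log2 fold change of 1.26, at 1.53 CPM in AS and 0.634 CPM in WT mice. Of the 21 genes, 9 overlap another annotated gene. The strand setting of the counting is not given in the sources used here, so reads of such pairs may not be fully separated.

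Addition of H17 and H18 reduced the number of genes that passed to 3 of 14424 (0.0208%), namely Ogn, Doc2a and Lamp5, with log2 fold changes of -1.99, 0.80 and -0.56 and adjusted p-values of 4.16e-06, 0.00207 and 0.0101. All 21 genes kept their direction in the 12-library fit, which reuses the libraries by which they were chosen. For 7 of the 21, both H17 and H18 lay outside the WT range on the side of the other AS mice, and for 9 neither did. Col6a1, Hrk and Plxna3 had adjusted p-values of 0.0619, 0.0619 and 0.0629 there, while Gm10076 had 0.9996 with a log2 fold change of -0.0018. These 2 libraries differed from the other AS vehicle libraries in their reads of low alignment quality. They also had more reads off genes, 15.5% and 15.8% against 12.96% to 14.67% in the 10 libraries. Their unaligned reads were 471896 and 490428, against at most 433707 in WT and 393214 in the other AS libraries. The part of these differences in the result was not tested.

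The 21 genes were then read in other mice of the series, which share no sample with the 10 libraries. In the continuous cohort, under vehicle pellet, 18 of 21 genes had the same direction of the AS minus WT difference, against 61.9% of all genes, and 10 of 21 had an unadjusted p under 0.05, against 7.34% of all genes. All 9 of the higher genes were above 0 again, as were 9 of the 12 lower genes below 0, Gm10076 and Selenok being among the exceptions. Of 14949 genes tested, 2 passed there (0.0134%). Ogn was one, at 2.35 ± 0.65 CPM (SD, n = 4) in AS and 10.5 ± 2.09 CPM (SD, n = 4) in WT mice (log2 fold change -2.15, edgeR adjusted p = 3.84e-05). In those mice all 12 meningeal fibroblast markers tested were below 0 with a median of -0.50, as were all 9 small leucine-rich proteoglycan genes with a median of -0.44, and Ogn is on both lists. All 9 choroid plexus markers tested were also below 0 there, with a median of -1.31. The part of these markers in the Ogn value was not tested. With H9 and H13 of that cohort added, which the study excluded, Ogn had -1.70 (edgeR adjusted p = 0.154). Doc2a had 0.58, Hrk 0.58, Lamp5 -0.48 and Col6a1 0.98, with edgeR adjusted p-values of 0.142, 0.104, 0.112 and 0.369.

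Under continuous CORT, 14 of 21 genes kept their direction (57.1% of all genes did). Ogn (-1.80, edgeR adjusted p = 9.49e-05) and Doc2a (0.64, edgeR adjusted p = 0.0371) passed, among 6 genes in all (0.0401%). In the acute CORT arm, 12 of 21 genes kept their direction, against 42.3% of all genes. There 3550 genes passed (24.6%), 11.3% of all genes as higher and 13.2% as lower, and 10 of the 21, of which 5 had the same direction, namely Ogn (-1.59), Lamp5 (-0.50), Doc2a (0.38), Col6a1 (0.78) and Hrk (0.57). Camk2n2 (-0.46), Gm10076 (0.75), Cul4a (0.31) and Selenok (0.19) passed in the direction opposite to the vehicle mice. All 8 neocortex and subiculum markers tested there, Lamp5 among them, were below 0 with a median of -0.32, and 4 passed as lower. Of 13 meningeal fibroblast markers, Ogn among them, 10 were below 0 with a median of -0.20, and 2 passed as lower. The part of these markers in the Lamp5 and Ogn values was not tested. In that arm all AS libraries had 2640 to 2785 low-quality reads and all WT libraries 1929 to 2237, so genotype and this read class cannot be told apart. In liver, 14 of the 21 genes were expressed enough to be tested and none passed (0.0163% of all genes passed under vehicle and 0.277% under CORT). Of these 14 genes, 10 had the same direction under vehicle (53.6% of all genes) and 2 under CORT (47.3% of all genes). Ogn had -0.084 and -0.073 there.

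**Figure D3:**
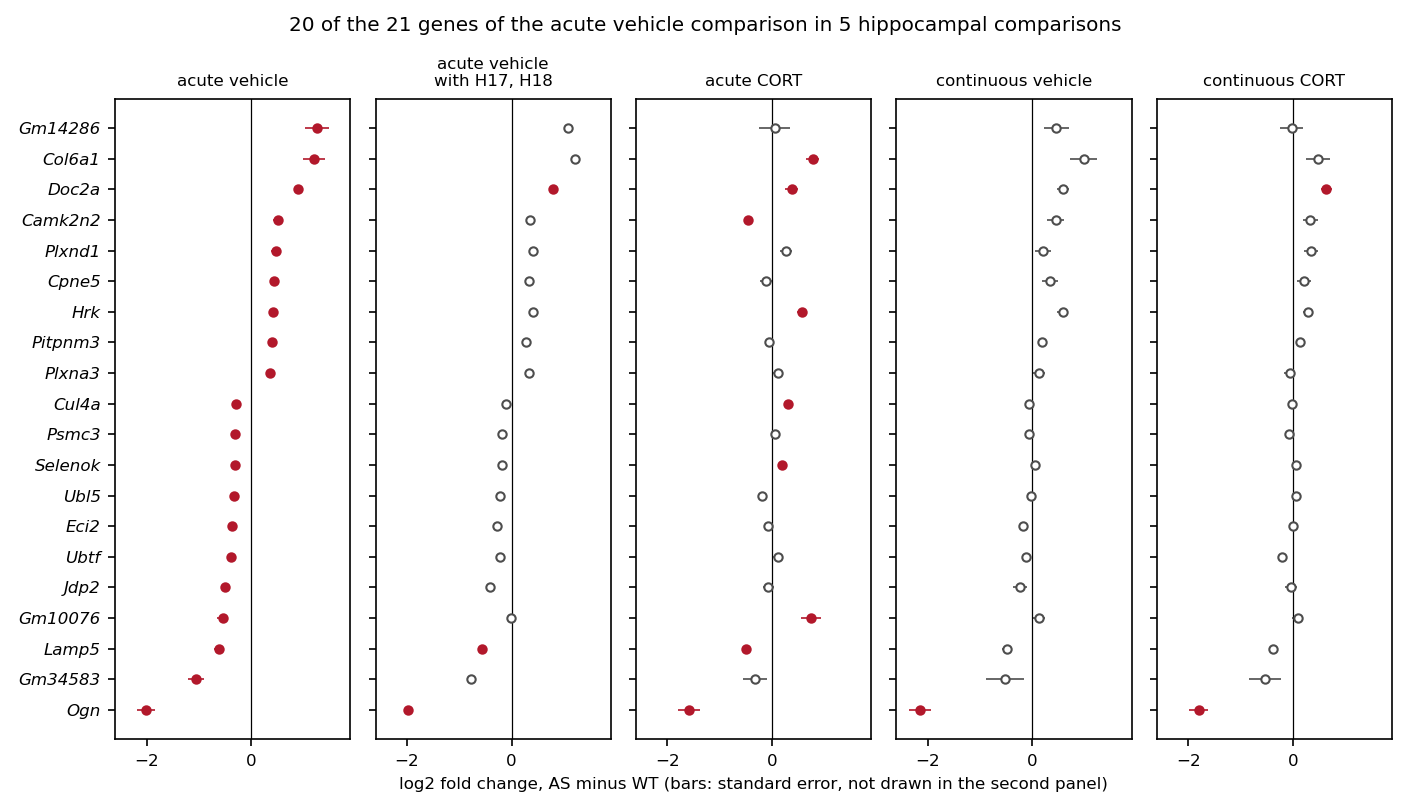
Log2 fold change (AS minus WT) of 20 of the 21 genes in 5 hippocampal comparisons, filled red where the edgeR adjusted p is under 0.05, with standard errors except in the second panel. Ogn lies between -1.59 and -2.15 in every panel, Doc2a and Lamp5 keep their sides, and Gm10076 lies on the right in the acute CORT panel.

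The GR target genes were mostly below 0 in AS vehicle mice. Of 19 tested, none passed the edgeR test across all genes, 16 were below 0, and the median log2 fold change was -0.17 against -0.0025 for all genes. At an unadjusted p under 0.05, 7 of 19 were lower and none higher, beside 7.98% of all genes lower and 6.52% higher. Mt2, a metallothionein, was 108 to 147 CPM in WT and 108, 89.5, 107 and 96.8 CPM in AS libraries, and 84.8 and 97.4 CPM in H17 and H18, so that every AS mouse lay below every WT mouse, by a narrow margin (-0.36, adjusted p = 0.10). Tsc22d3, which encodes the glucocorticoid-induced leucine zipper GILZ, had 38.4 ± 4.78 CPM (SD, n = 6) in WT and 28.9 ± 5.24 CPM (SD, n = 4) in AS mice (-0.41, adjusted p = 0.122), and the groups overlapped. Fkbp5, a chaperone of the GR that is itself induced by it, had -0.20 (adjusted p = 0.218). The list median was -0.11 to -0.22 when each library was left out in turn and -0.17 with H17 and H18. Without H6, Mt2 passed as lower, beside 0.702% of all genes. In acute CORT mice the list median was -0.13, with 15 of 19 below 0, and 3 of 19 passed as lower, near the share of all genes (13.2%). In the continuous cohort the list median was -0.21 under vehicle, with 16 of 19 below 0, and 0.13 under CORT, with 4 of 19 below 0, and no member passed in either. Among 14 corticosteroid receptors and chaperones none passed, 12 were below 0 and the median was -0.037. With H17 and H18, 8 were below 0 with a median of -0.015, and without H15, 8 with -0.023. Under acute CORT, 11 were above 0, with 2 passing as higher and 1 as lower, beside 11.3% and 13.2% of all genes.

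Among genes near Ube3a and its reported substrates, none passed in the 10-library edgeR test. Among 14 genes of the Ube3a region on chromosome 7 the median log2 fold change was -0.019. Gabra5, a GABA receptor subunit of hippocampal pyramidal neurons, had -0.21 (adjusted p = 0.122), and the antisense transcript Snhg14, which overlaps Ube3a, had 0.31 (adjusted p = 0.236). Among 15 reported substrates and partners of UBE3A the median was 0.0092. Cdkn1b, an inhibitor of the cell cycle, was 40.5 to 46.5 CPM in WT and 37.99, 35.1, 32.8 and 34.4 CPM in AS libraries (-0.31, adjusted p = 0.0592), with all AS libraries below all WT libraries, H17 and H18 included. Cdkn1b passed as lower without H6, beside 0.702% of all genes. Of the 15 substrates and partners, 2 passed as lower in acute CORT mice, beside 13.2% of all genes.

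Of 31 proteasome subunit genes, Psmc3 passed, 25 were below 0, 9 were lower and none higher at an unadjusted p under 0.05 (7.98% and 6.52% of all genes), and the median was -0.11. The median was -0.048 with GC content and length offsets and -0.070 to -0.13 when single libraries were left out. Psmc3 and Psmd8 passed as lower without H1 and without H6, beside 0.52% and 0.702% of all genes, and no member passed without any one of the other libraries. With H17 and H18 the median was -0.019, with 18 below 0 and none passing, and in continuous vehicle mice it was 0.0037. In acute CORT mice the direction was opposite, with 27 of 31 above 0 and a median of 0.083, and 8 passed as higher, beside 11.3% of all genes. Similarly, of 79 cytosolic ribosomal protein genes, a group chosen after the values were seen, 74 were below 0 with a median of -0.17, which was -0.078 with H17 and H18 and -0.032 in continuous vehicle mice. Ribosomal protein genes have near-identical processed copies, so the counting may have split or dropped some of their reads. All 11 clustered histone genes tested, also chosen after the values were seen, were below 0 with a median of -0.53 (-0.46 with H17 and H18 and -0.22 in continuous vehicle mice), and none passed.

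No gene passed in the 10-library edgeR test on the lists of receptor subunits, immediate early genes, neuropeptides and clock genes. Among 22 glutamate receptor subunits none passed, 16 were above 0 and the median was 0.065, or 0.026 without H14, 0.035 without H1 and 0.039 with H17 and H18. In continuous vehicle mice it was -0.023, with 13 of 22 below 0. Grm4 had 0.39 and Grin3a 0.33 (adjusted p = 0.102 and 0.176). Among 14 GABA receptor subunits none passed and the median was 0.00088. Among 17 immediate early genes none passed, 12 were below 0 and the median was -0.12, which ran from -0.21 to -0.020 when single libraries were left out and was -0.21 with H17 and H18. In acute CORT mice it was -0.42, and 6 of 17 passed as lower, beside 13.2% of all genes. Under acute vehicle Fosb had 0.45 (adjusted p = 0.0956) with 13.1 ± 1.51 CPM in AS (SD, n = 4) and 9.58 ± 1.28 CPM in WT mice (SD, n = 6), while H17 and H18 read 7.42 and 9.55 CPM. Among 14 hippocampal neuropeptide genes none passed, 11 were below 0 and the median was -0.19, with members from -0.81 (Nts, neurotensin) to 0.62 (Tac2, neurokinin B). The median was -0.092 with H17 and H18, and 0.12 in continuous vehicle mice, with 9 of 14 above 0. Penk, the enkephalin precursor, had -0.48, and Cck, cholecystokinin, had -0.24 (adjusted p = 0.114 and 0.118). Among 19 circadian clock genes none passed and the median was -0.0020, with Per2 at -0.31 and Arntl at -0.28 (adjusted p = 0.232 and 0.238). With H17 and H18 the clock gene median was -0.058, with 15 of 19 below 0, and in continuous vehicle mice it was -0.16, with 14 of 19 below 0. Under acute CORT, 5 of 19 passed as lower, beside 13.2% of all genes.

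**Figure D4:**
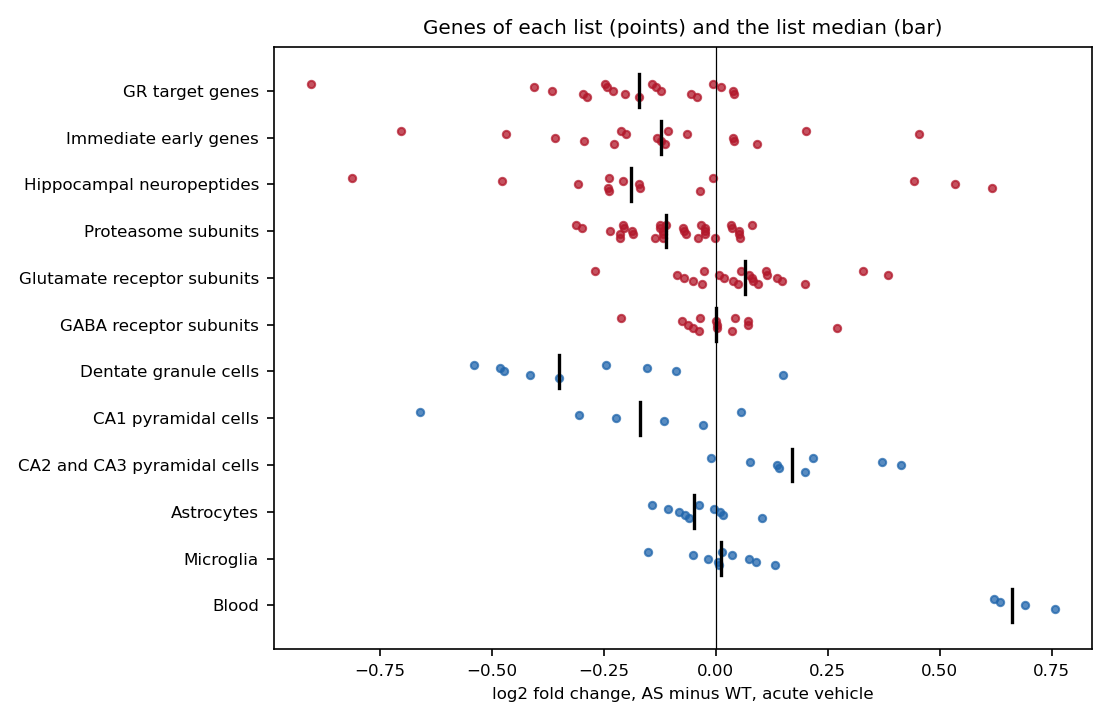
Log2 fold change (AS minus WT, acute vehicle) of the tested genes of 6 pathway lists (red) and 6 cell type marker lists (blue), 1 point per gene, with the list median as a black bar. The GR target median is -0.17, the dentate granule cell median -0.35 and the 4 blood genes tested lie between 0.62 and 0.76.

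The markers of hippocampal cell types were present in every library, and none of the dentate, CA1, CA2 and CA3 markers passed. Of 9 dentate granule cell markers 8 were below 0 and the median was -0.35, or -0.15 with H17 and H18. It was -0.18 without H14, -0.20 without H3, -0.53 without H13 and -0.51 without H6, when Calb1 passed as lower, beside 0.702% of all genes. Calb1, the calcium buffer calbindin, had -0.47 (adjusted p = 0.186). Summed levels were 352 to 876 CPM in WT and 435 to 803 CPM in AS libraries, so the groups overlapped. In continuous vehicle mice the median was -0.25, with all 9 below 0, and in acute CORT mice it was 0.44, with all 9 above 0 and 1 passing as higher, beside 11.3% of all genes. The 6 CA1 markers had a median of -0.17, with Wfs1 at -0.66 (adjusted p = 0.215), and the 8 CA2 and CA3 markers had 0.17. Single libraries moved these values. The CA1 median was 0.012 without H4 and -0.14 to -0.22 without any one of the others, and the CA2 and CA3 median was 0.027 without H4, 0.0025 without H16 and up to 0.29 without H6. Under acute CORT the CA2 and CA3 median was -0.29. The part of the dissected subregions in the results above was not tested.

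The 4 blood genes tested were all above 0 with a median of 0.66, and none passed, whereas without H6 the median was 0.89 and Hba-a1 and Hba-a2 passed as higher, beside 0.344% of all genes. The median was 0.42 without H15 and 0.52 with H17 and H18. In continuous vehicle mice all 5 blood genes tested were above 0, with a median of 0.71. Under continuous CORT 4 of 5 were below 0, with a median of -0.39. In acute CORT mice 4 of 5 were below 0, with a median of -0.28. There 1 passed as higher and 1 as lower, beside 11.3% and 13.2% of all genes. Under acute vehicle Hba-a2, an alpha globin, had 0.76 (edgeR adjusted p = 0.243). Their list summed to 51.2 to 147 CPM in WT and 87.8 to 190 CPM in AS libraries. Astrocyte, oligodendrocyte, microglia, endothelial and immature neuron lists had medians of -0.048, 0.0055, 0.011, 0.054 and 0.041, with no gene passing. Without H6 the oligodendrocyte median was 0.15, with 10 of 12 genes above 0, and the immature neuron gene Neurod1 passed as lower, beside 0.702% of all genes. The oligodendrocyte median was 0.16 without H15 and -0.14 without H13. Thalamic and striatal markers, which would show tissue from beside the hippocampus, had medians of -0.014 and 0.14, again with none passing. The 4 choroid plexus genes tested were below 0 with a median of -0.58, of which Ttr had -5.28 (adjusted p = 0.212) through H6. Without H6 the median of this list was 0.055.

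Genotype was not the leading source of variance among the 10 libraries. In a principal component analysis of the 500 most variable genes, PC1 held 42.4% of the variance and separated H6, at 9.95, from the other libraries, which lay between -5.65 and 4.78. The group means on PC1 differed by 2.42 (exact permutation test over 210 splits, two-sided, p = 0.471). PC2 held 18.97% with AS mice higher by 3.73 (exact permutation p = 0.0429, adjusted over 3 components 0.129), and PC3 held 13.7% with a difference of 2.56 (exact permutation p = 0.148, adjusted 0.221). The PC2 result depended on the setting. Its adjusted p (exact permutation) was 0.0429 in a PCA of all genes tested, 0.0286 on log2 CPM and 0.143 with H17 and H18. The smallest p that the 10-library design allows is 0.00476. Without H6, PC1 held 40.2% and AS mice were higher on it by 6.22 (exact permutation p = 0.0238, adjusted 0.0714).

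**Figure D5:**
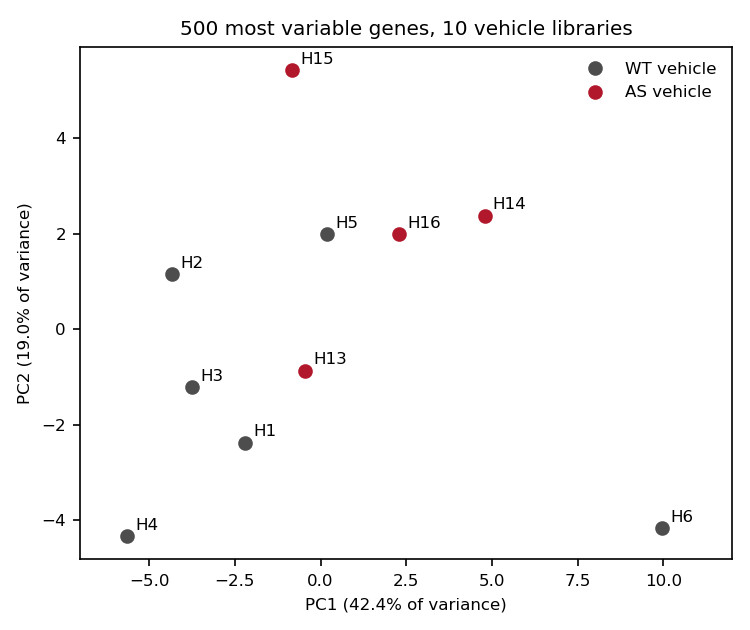
Scores of the 10 vehicle libraries on PC1 (42.4% of variance) and PC2 (18.97%), WT in grey and AS in red, each labelled with its library. H6 lies at 9.95 on PC1, apart from the others, and the AS libraries lie among and above the WT libraries on PC2.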

How the data were processed

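RNA of the left hippocampus was sequenced as stranded, paired-end mRNA libraries. Per the labels and the study's methods, the authors checked reads with FastQC and MultiQC, aligned them to mm10 with STAR and counted them per gene with HTSeq. The deposited values are raw read counts per gene, not normalized, for 55414 gene identifiers of which 52133 matched a symbol in GENCODE M21 (GRCm38). The rows of unassigned reads were left out of library sizes and tests. All columns were matched to samples, with 0 columns of no sample.

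Groups came from the labels and library names. AS vehicle H13 to H16 were tested against WT vehicle H1 to H6 with edgeR 4.0.16 (R 4.3.3) by the quasi-likelihood F test with TMM normalization and Benjamini-Hochberg adjustment, at an adjusted p of 0.05. As in the study, genes needed more than 20 normalized counts (median of ratios) in at least 3 libraries of a group. Other mice were tested in the same way, with the continuous hippocampus groups in one fit without H9 and H13 of that cohort, which the study excluded. CPM values were scaled by TMM over the 24 acute libraries. Log2 fold changes were those of the fitted models, and a prior count of 2 was used for log2 CPM values only. PCA used 500 genes after the variance stabilizing transformation. Library measures and PC scores were compared by exact permutation tests. DESeq2 1.42.0 and limma 3.58.1 served as alternatives. The scripts were tested on simulated data. Standard errors and SDs include the spread between mice, while the detection limits cover counting error only.

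Named genes were Ube3a, Nr3c1, every gene that passed except 1, which is counted but not reported here, and, for each gene list, the members that passed or those with the smallest p. Any other named gene was chosen after its values were seen. The 27 lists (12 pathway lists and 15 marker lists) were described by counts and medians and were not tested as sets. The groups, genes and lists were chosen with earlier results of these data known. Promoter windows were taken from RefSeq (GRCm38.p6), where Ogn and Lamp5 matched. Doc2a had no match.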

Additional observations from a re-analysis of the deposited data

Results flagged for a closer look

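Among 46 groups of libraries examined (WT and AS, for the 21 genes that passed and for Ube3a and Nr3c1), 4 held 1 library far from the rest of its group by Dixon's criterion, which chance gives in about 1 in 20 groups. Ubtf read 112 CPM in AS library H15 against 99.1 to 101 CPM in the other AS libraries. Psmc3 read 104 CPM in the same library against 96.3 to 97.2 CPM. Both values still lay below every WT library. In WT library H4, Eci2 read 19.7 CPM against 20.8 to 21.4 CPM in the other WT libraries, and Plxnd1 read 52.5 CPM against 38.7 to 43.7 CPM. For both genes, H4 was the WT library nearest to the AS mice.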

How the results depend on the processing

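Ogn and Doc2a passed in all 19 alternatives of the test, the filter, the normalization and the libraries, Lamp5 in 17 and Pitpnm3 in 15. None of the 21 genes changed direction in any of these. These fits reuse the libraries by which the genes were chosen, so an unchanged direction is not a separate check. The number of genes that passed was 21 (9 higher, 12 lower). It was 3 (1 and 2) with H17 and H18 and with libraries H1 to H16, 383 (185 and 198) with DESeq2, 162 (66 and 96) without the filter on low counts, 298 (108 and 190) with limma-voom quality weights, 39 (18 and 21, with 17 of the 21 among them) with GC content and length offsets, 23 (9 and 14, with 9 of the 21 among them) in the fit of all 24 acute mice, and 2 (1 and 1) at an adjusted p of 0.01. DESeq2 size factors and upper-quartile normalization each gave 21. Of 47 other genes followed through these settings, Psmd8 and Hba-a1 not among them, 11 passed with DESeq2, which gave no adjusted p for some, 8 without the filter, 6 without H6, 4 with limma-voom and 1, Baiap3, in the fit of all 24 mice. When each library was left out in turn, the number ranged from 2 to 149, with 1 to 49 higher and 1 to 100 lower genes. The cause of these shifts was not tested.

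Alternatives chosen after the data were seen gave 14 genes (9 and 5) with H17 and H18 and GC and length offsets, 108 (53 and 55) with H17 and H18 in DESeq2, and 93 (71 and 22, of which 3 were shared) where the AS group was reduced to H17 and H18. In this last setting the log2 fold change turned, among the genes named, for Pitpnm3 (-0.027), Ubtf (0.054), Cul4a (0.21), Psmc3 (0.061), Gm10076 (0.71), Selenok (0.056), Fosb (-0.16), Hbb-bs (-0.47), Vip (0.11), Chga (0.35), Cx3cr1 (-0.042), Slc1a2 (-0.28), Cldn5 (-0.049) and Aif1 (0.45). Gm10076 was also turned with H17 and H18 under offsets (0.0058) and DESeq2 (0.0020). With H17 and H18, Chga was 0.0067 (DESeq2 0.012), Slc1a2 -0.015 (offsets -0.039, DESeq2 -0.010) and Aif1 0.075 (offsets 0.094, DESeq2 0.080). Mobp was 0.025 under limma-voom. Leaving out single libraries moved Ube3a between -0.067 and 0.040, Nr3c1 between -0.039 and 0.056, and Enpp2 between -0.67 and 0.079.

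PC2 differed by 9.17 in a PCA of all genes tested and by 9.23 on log2 CPM (exact permutation, adjusted p = 0.0429 and 0.0286). In continuous vehicle mice 2 genes passed, 0 with all 20 mice (edgeR, with 1254 at an unadjusted p under 0.05) and 1, Ogn, with vehicle mice only. Log2 fold changes correlated across genes with GC content (Spearman rho 0.17) and transcript length (0.14). No paired analysis was possible, because the compared groups are different mice and the labels give no litter. The paper describes the WT mice as littermates. Levels below a count of 3, which is 0.142 to 0.157 CPM, were not detectable at this depth.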
